A study of Homo sapiens with 4 samples.

Results

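The core and linker histone genes encode the proteins that package DNA into chromatin. The members were chosen by name: a gene entered if its symbol in the array's annotation begins with H1-, H2AC, H2BC, H3C or H4C and if it has a probeset, the set of short probes that reads 1 transcript, assigned to it alone. This gave 50 of the 19775 genes measured: 9 linker H1 genes, 8 of H2A, 14 of H2B, 7 of H3, 8 of H4, and 4 entries with no protein product (H1-10-AS1, a long non-coding antisense RNA, and the pseudogenes H1-9P, H2AC5P and H4C10P). Of the 50 genes, 42 lie on chromosome 6.

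Pairs of H2A with H2B and of H3 with H4 build the protein core that DNA wraps around, and linker H1 binds where the DNA enters and leaves it. Most of these genes are replication-dependent: they are transcribed together in S phase, when new DNA has to be packaged. Their messenger RNAs end in a stem-loop bound by the protein SLBP instead of a poly(A) tail, and a few members, H1-10 among them, are transcribed outside S phase with a poly(A) tail. The RNA here was amplified with a 3' IVT kit, which primes from poly(A) tails, so the arrays read such RNAs less directly than other messenger RNAs.

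The samples came from HuH7, an established human hepatocellular carcinoma cell line, and were measured on 4 one-colour Affymetrix arrays in 3 groups. The parental group, HuH7-F0, has 2 arrays, called F0 (1) and F0 (2). For the other groups, NOD/SCID mice (an immunodeficient strain) that carried HuH7 tumors received intraperitoneal JNJ-28841072, an inhibitor of VEGFR and aurora kinases; tumors that had become resistant were cut up and regrafted, 6 times for HuH7-F6 and 12 times for HuH7-F12, with 1 array each. The phenotype label of F6 and F12 instead names sorafenib as the drug. No regrafted but untreated tumor was among the samples, the origin of the F0 samples (separate cultures, tumors or neither) is not given, and the RNA was extracted from tissue specimens in which the share of mouse cells is not given. With 1 array in F6 and in F12, a value there has no replicate error, and the only spread that can be measured is that of the F0 pair.

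The deposited values are log2 signals, on which a difference of 1 is 2-fold. They compare 1 probeset between arrays; the levels of different genes cannot be set against each other, since probes differ in brightness. Where 4 values stand in a row, they are in the array order F0 (1), F0 (2), F6, F12. Signals under 6 are treated here as near background. The array-wide medians over all genes lay between 5.64 and 5.83. The F0 arrays differed from each other over much of the genome: F0 (2) was at least 2-fold lower than F0 (1) for 34.1% of all genes and at least 2-fold higher for 25.0%. Of 9 measured hepatocyte and hepatoma markers, all 9 reached 6 on at least 1 array, with medians of 10.18 on F0 (1), 12.17 on F0 (2), 11.95 on F6 and 12.04 on F12. Markers of endothelial cells, fibroblasts and macrophages reached 6 in 1 of 5, 1 of 5 and 1 of 4 genes, lymphocyte markers in 3 of 5, erythroid markers in 2 of 2, and germ cell markers in 0 of 5; the highest value among these 26 genes was 7.14.

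The promoters of 5 members are shown because these genes stand outside the F0 pair in what follows: H2AC6, H2BC12 and H1-2 were at least 2-fold above both F0 arrays on F6, and H1-1 and H1-4 at least 2-fold below both on F12. Each sequence is the 250 bases before the start of the gene, 5′ to 3′ on the gene's own strand, from RefSeq on GRCh38.p14. Capitals mark matches, on either strand, to 5 motifs of histone promoters: the octamer ATTTGCAT, the CCAAT box, the TATA box letters TATAAA, and the E2F-like cores GCGCGAAA and GCGGGAAA.
H2AC6: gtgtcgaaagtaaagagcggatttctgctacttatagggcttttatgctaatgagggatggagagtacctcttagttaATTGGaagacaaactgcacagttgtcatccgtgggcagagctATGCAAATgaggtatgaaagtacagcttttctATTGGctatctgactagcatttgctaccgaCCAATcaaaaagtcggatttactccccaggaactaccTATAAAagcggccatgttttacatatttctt
H2BC12: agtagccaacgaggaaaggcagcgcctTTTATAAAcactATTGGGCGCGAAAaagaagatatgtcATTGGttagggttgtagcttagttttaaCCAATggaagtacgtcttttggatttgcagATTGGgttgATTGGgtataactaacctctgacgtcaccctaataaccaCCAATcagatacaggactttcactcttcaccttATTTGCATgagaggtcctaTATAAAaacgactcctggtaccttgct
H1-2: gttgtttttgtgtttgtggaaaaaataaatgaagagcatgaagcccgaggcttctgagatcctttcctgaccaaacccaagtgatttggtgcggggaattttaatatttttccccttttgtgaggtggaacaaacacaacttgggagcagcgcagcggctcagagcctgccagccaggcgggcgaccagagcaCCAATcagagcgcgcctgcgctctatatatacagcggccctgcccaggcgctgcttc
H1-1: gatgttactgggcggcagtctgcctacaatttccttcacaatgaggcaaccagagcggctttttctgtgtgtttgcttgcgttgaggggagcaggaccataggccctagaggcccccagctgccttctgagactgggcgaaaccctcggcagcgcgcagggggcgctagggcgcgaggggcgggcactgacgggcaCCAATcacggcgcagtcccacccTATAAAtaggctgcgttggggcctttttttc
H1-4: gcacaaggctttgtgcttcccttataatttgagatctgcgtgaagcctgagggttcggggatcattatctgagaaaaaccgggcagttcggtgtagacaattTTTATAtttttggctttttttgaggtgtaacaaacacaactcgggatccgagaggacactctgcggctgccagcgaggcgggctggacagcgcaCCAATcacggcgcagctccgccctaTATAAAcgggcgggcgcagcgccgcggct

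The H2AC6 stretch lies at chr6:26123922-26124171 on the plus strand, H2BC12 at chr6:27146859-27147108 on the minus strand, H1-2 at chr6:26056471-26056720 (minus), H1-1 at chr6:26017788-26018037 (minus) and H1-4 at chr6:26156079-26156328 (plus). Both core histone promoters hold the octamer and the 3 H1 promoters do not. All 5 hold CCAAT.

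Over the full windows of 300 bases (250 before and 50 after the start), 43 of the 50 members had a promoter in the table; H1-10-AS1, H1-9P, H2AC5P, H2BC12L, H3C11, H4C1 and H4C10P had none. The octamer was in 6 of 8 H2A and 10 of 13 H2B promoters, and in 0 of the 22 promoters of H1, H3 and H4 genes, against 1.77% of all 35116 promoters. CCAAT was in 86.0% of the member promoters (34.6% of all), TATAAA in 65.1% (11.5%), GCGCGAAA in 20.9% (0.515%) and GCGGGAAA in 2.33% (1.63%). Matches overlapped in 3 member promoters (H2BC11, H2BC12 and H3C7), where TATAAA ran into its own reverse complement in the letters TTTATAAA. A match describes the letters and does not show that a factor binds there.

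The 2 parental arrays disagreed on most histone genes. F0 (2) read lower than F0 (1) in 49 of 50 members, at least 2-fold lower in 38 and at least 4-fold lower in 17, and the median difference was -1.70. Over all genes the median difference was -0.60, 66.0% read lower on F0 (2) and 5.14% were at least 4-fold lower; of the genes with a mean signal under 6, 82.5% read lower. H2BC4, at 2.19 on F0 (1) and 2.33 on F0 (2), was the exception. The H3 genes differed most between the F0 arrays, with a median of -2.27, and H4 least among the protein-coding types, with -1.57. A signal of at least 6 was reached by 31 members on F0 (1), 13 on F0 (2), 25 on F6 and 11 on F12, while the share of all genes that reached it stayed between 43.2% and 48.3%. Every comparison with F0 below therefore depends on which F0 array is taken.

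**Figure D1:**
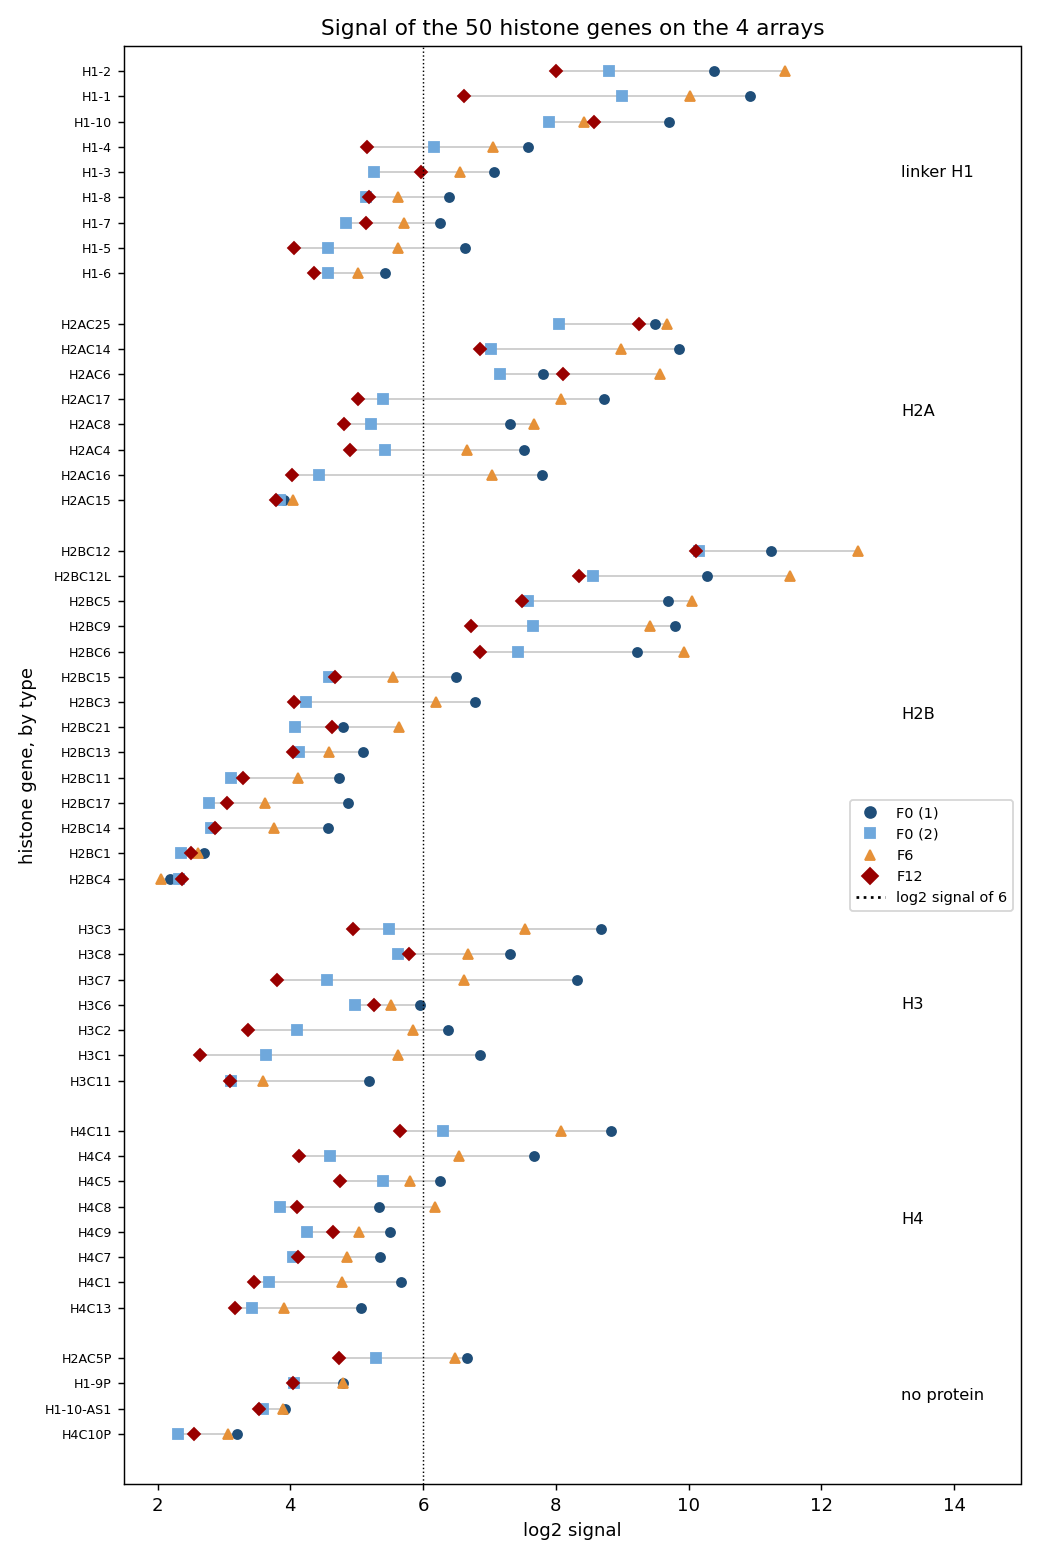
Log2 signal of each of the 50 histone genes (rows, grouped by type and ordered by mean) on the 4 arrays; each point is 1 array, each grey line spans the 4 values and the dotted line marks a log2 signal of 6. In 49 of 50 rows F0 (2) lies left of F0 (1) (66.0% of all genes), and in 48 of 50 rows F12 lies left of F6 (63.5% of all genes).

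F12 was set against F6 to ask how the more often regrafted tumor differed from the less often regrafted one; it is the comparison that does not use F0. F12 read lower than F6 in 48 of 50 histone genes, against 63.5% of all genes and 75.2% of those with a mean under 6. The difference reached 2-fold in 27 members, against 14.7% of all genes, and 0 members were at least 2-fold higher, against 20.2% of all genes. The median difference was -1.19 over the members and -0.29 over all genes. Both exceptions were small: H1-10, 8.43 on F6 and 8.58 on F12, and H2BC4, near background on every array. The groups have 1 array each, so these counts describe 2 arrays and carry no test of F12 against F6 beyond the model given below.

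Against F0, F6 lay between the F0 arrays for 38 members, above both for 11 and below both for 1. The share of members between the F0 arrays, 76.0%, was that of all genes (76.3%), of which 13.3% lay above both and 10.4% below both. F12 lay below both F0 arrays for 31 members, between them for 17 and above both for 2; over all genes, 30.4% lay below both and 19.5% above both. Few members cleared the F0 pair by 2-fold. On F6, 4 members were at least 2-fold above both F0 arrays (0.576% of all genes were) and 0 at least 2-fold below both (0.561% of all genes). On F12, 2 members were at least 2-fold below both (1.37% of all genes) and 0 at least 2-fold above both (1.93% of all genes). The count on F6 became 29 without F0 (1), and the count on F12 became 39 without F0 (2). Shares of all genes against a single F0 array are not given, so the shares above are no background for these counts. Between the F0 arrays alone, 34.1% of all genes were at least 2-fold lower on F0 (2).

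Many members shared 1 order of the arrays. In 24 members (48.0%) the signal ran from F0 (1) through F6 and F0 (2) down to F12, an order held by 21.7% of all genes, and 13 more (26.0%) had F12 and F0 (2) exchanged, as did 26.2% of all genes. F6 was first, ahead of F0 (1), F0 (2) and F12 in that order, in 7 members (14.0%) and 3.48% of all genes. Because the F0 arrays differed so widely, the value that a fit over all genes gives for a gene's F0 signals was subtracted from F6 and from F12. After this adjustment F12 was at least 2-fold lower than F6 in 14 members (5.05% of all genes) and at least 2-fold higher in 1 (5.99% of all genes). The 14 were H1-1, H1-2, H1-4, H2AC8, H2AC16, H2AC17, H2BC5, H2BC6, H2BC9, H2BC12, H2BC12L, H3C1, H3C2 and H4C8, and the 1 was H1-10 at 1.43. The adjusted median was -0.41 over the members and -0.03 over all genes.

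The limma model, fitted to all 19775 genes with the F0 pair as its only source of spread (1 residual degree of freedom), called 0 genes at an adjusted p of 0.05 in each of F6 against F0, F12 against F0 and F12 against F6, and likewise with F6 and F12 as a single group against F0 (2 residual degrees of freedom). At an unadjusted p under 0.05 it had 7, 85, 116 and 45 genes in these 4 comparisons and 0 histone genes. The adjusted p was 1 for every member in every one of them. The standard error was the same for every member, 1.74 for F6 or F12 against F0 and 2.01 for F12 against F6. A 2-fold difference thus lay within 1 standard error. In these comparisons the p-values hold nothing of a gene's own F0 spread and only order members by the size of the difference. With F6 and F12 as a single group the standard error differed between members. The folds given here are measurements of single arrays, and none passed this test.

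**Figure D2:**
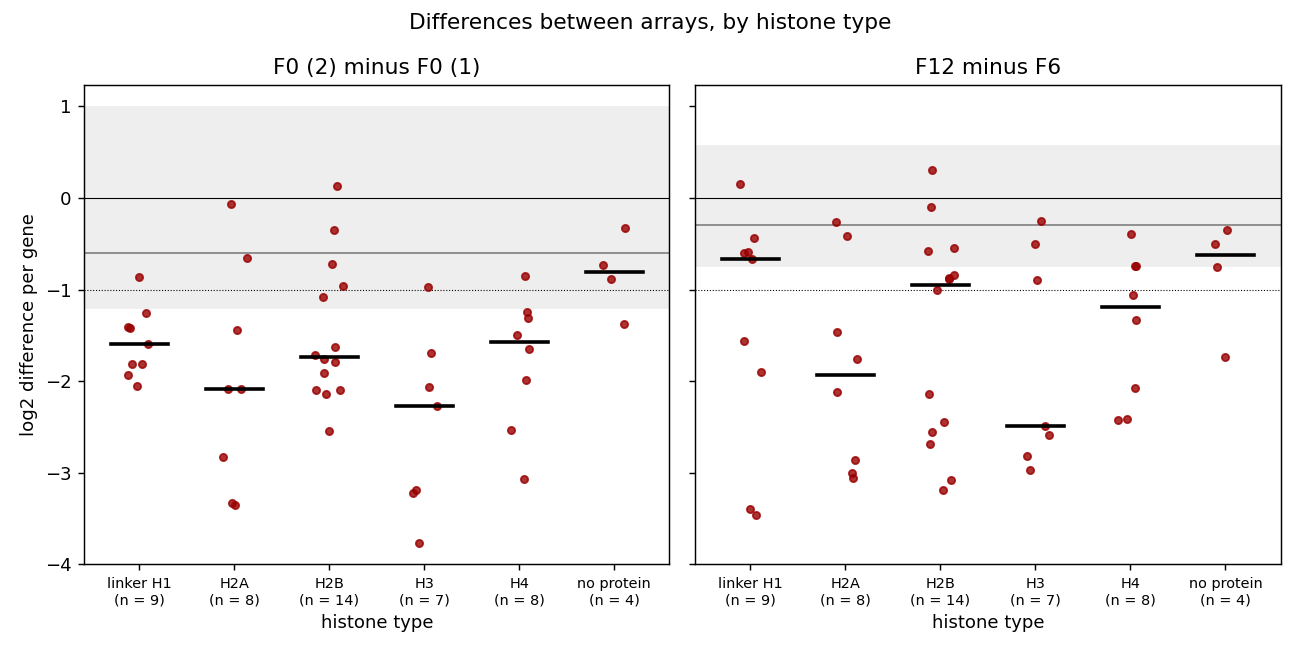
Log2 difference per histone gene (points) between the F0 arrays (left) and between F12 and F6 (right), by histone type, with black bars at each type's median; the grey line and band are the median and the middle 50% of all 19775 genes and the dotted line marks 2-fold lower. Nearly all points lie below 0 in both panels, with H3 lowest by median in both, at -2.27 and -2.49; after the adjustment for the F0 arrays H2A was lower than H3 for F12 minus F6.

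Linker H1 genes encode the proteins that bind linker DNA and compact nucleosome arrays. Their median for F12 minus F6 was -0.67, against -0.29 over all genes. On F12, 4 of 9 were at least 2-fold lower than on F6 (14.7% of all genes). H1-1 read 10.93 on F0 (1), 8.99 on F0 (2), 10.01 on F6 and 6.61 on F12. F12 stood alone, 2.38 below the lower F0 array (5.2-fold) and 3.40 below F6 (10.6-fold), while F6 lay within the F0 pair. The unadjusted limma p of H1-1 for F12 against F0 was 0.0547, the smallest of any member in that comparison, and the adjusted p was 1.

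H1-2, one of the most widely expressed somatic H1 genes, read 10.39 and 8.79 on the F0 arrays, 11.46 on F6 and 7.999 on F12. F6 was above both F0 arrays, by 1.07 over the higher (2.1-fold), and F12 below both. The difference between F12 and F6, -3.46 or 11-fold, was the greatest in size of the 50 members. Its unadjusted limma p was 0.0855 and its adjusted p 1.

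H1-4 read 7.57 and 6.16 on F0, 7.05 on F6 and 5.15 on F12, which placed F12 at 1.01 below the lower F0 array, just inside 2-fold. H3C1, whose F12 signal differed from the lower F0 array by -0.9965, lay just outside. H1-5 read 6.62 and 4.57 on F0, 5.62 on F6 and 4.06 on F12, with only F0 (1) above 6. H1-3 had values of 7.07, 5.26, 6.56 and 5.96 in the array order, and F12 lay within the F0 pair.

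H1-10, the polyadenylated H1 that is not tied to S phase, read 9.71 and 7.90 on F0, 8.43 on F6 and 8.58 on F12. Both F6 and F12 lay within the F0 pair, and H1-10 was the 1 member with a signal well above 6 that was not lower on F12 than on F6. The germ cell members were dim: H1-6, the testis H1 of chromosome 6, lay between 4.36 and 5.43, H1-7, another testis H1, between 4.84 and 6.26, and H1-8, the oocyte H1, between 5.14 and 6.39. On all of these the highest value was that of F0 (1), and on the probesets taken F12 minus F6 was between -0.67 and -0.44. Their other probesets gave -1.07 and -1.12 for H1-7 and -0.27 for H1-6.

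The H2A genes encode the core histone that pairs with H2B. Of these, 6 of 8 were at least 2-fold lower on F12 than on F6 (14.7% of all genes). Their median was -1.94, against -0.29 over all genes. H2AC6 read 7.81 and 7.15 on the F0 arrays, 9.57 on F6 and 8.11 on F12. It had the narrowest F0 pair of any member above 6, and both F6 and F12 were above that pair, F6 by 1.76 (3.39-fold) and F12 by 0.30 (1.23-fold). H2AC6 also had the smallest unadjusted limma p of the members for F6 and F12 together against F0, 0.143, with an adjusted p of 1.

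H2AC17 and H2AC16 had wide F0 pairs. H2AC17 read 8.73 and 5.39 on F0, 8.08 on F6 and 5.03 on F12, so that F6 stayed near F0 (1) and F12 near F0 (2). H2AC16 showed the same layout at 7.79, 4.44, 7.04 and 4.03. H2AC14, read only by a probeset whose probes can match related sequences (suffix _x_at), had 9.85 and 7.02 on F0, 8.98 on F6 and 6.85 on F12.

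H2AC8 read 7.30 and 5.22 on F0, 7.67 on F6 and 4.81 on F12, with F6 above and F12 below the pair. H2AC25, 1 of the 8 members outside chromosome 6 (it lies on chromosome 1), read 9.49 and 8.05 on F0, 9.67 on F6 and 9.25 on F12. Among H2A members above 6 it had the smallest difference between F12 and F6, -0.42. After the adjustment for the F0 arrays this difference turned to 0.64. H2AC4, at 7.52, 5.43, 6.66 and 4.90, had F12 below the F0 pair, and H2AC15 was near background throughout, between 3.78 and 4.04.

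The H2B genes, which encode the partner of H2A, included 2 of the 4 members at least 2-fold above both F0 arrays on F6. Of 14 members, 7 were at least 2-fold lower on F12 than on F6 (14.7% of all genes), and 0 were higher by 2-fold (20.2% of all genes). The median difference was -0.95, against -0.29 over all genes. For the 7 H2B genes that reached 6 on an array it was -2.56, lower than the -2.12 of the 7 H2A genes that did. H2BC12 read 11.24 and 10.16 on F0, 12.56 on F6 and 10.11 on F12; F6 was 1.32 above the higher F0 array (2.5-fold), and F12 was level with F0 (2). H2BC12L, a close copy of H2BC12 on chromosome 21, read 10.28, 8.56, 11.53 and 8.34 in the array order, with F6 1.26 above the higher F0 array (2.39-fold). It has only an _x_at probeset, so the signals of both genes may come in part from the same RNA.

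Of the other bright H2B members, each also read by _x_at probesets only, H2BC5 read 9.69 and 7.59 on F0, 10.04 on F6 and 7.48 on F12. H2BC6 had 9.22, 7.44, 9.93 and 6.85 in the array order. On these probesets F6 was above and F12 below the F0 pair in both genes, by less than 2-fold. The second probeset of H2BC5 gave 8.54, 7.26, 9.61 and 8.02, with F12 inside the F0 pair. H2BC9 differed in that F6, at 9.42, lay between its F0 values of 9.80 and 7.65; F12, at 6.73, was 0.93 below the lower.

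The remaining 9 H2B members had means under 6, and of these H2BC3 (6.78, 4.24, 6.20 and 4.06) and H2BC15 (6.50, 4.59, 5.54 and 4.67) reached 6 on an array. H2BC21, the chromosome 1 gene known to give also a polyadenylated RNA, read 4.80 and 4.07 on F0, 5.64 on F6 and 4.63 on F12, all under 6. H2BC4, which shares 255 bases of promoter window with H2AC6 on the opposite strand, lay between 2.06 and 2.37 on all 4 arrays. Such divergent H2A and H2B neighbours formed 4 pairs among the members (H2AC6 with H2BC4, H2AC14 with H2BC14, H2AC15 with H2BC15, H2AC17 with H2BC17). In each pair at least 1 gene had a mean under 6, so the pairs gave no comparison of bright neighbours.

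The H3 genes encode the core histone whose tail carries many of the best-known modifications. Their median for F12 minus F6 was -2.49, the lowest of the types, against -0.29 over all genes. On F12, 4 of 7 were at least 2-fold lower than on F6 (14.7% of all genes). H3C3 read 8.69 and 5.49 on F0, 7.53 on F6 and 4.94 on F12. H3C7 had 8.32 and 4.56 on F0, 6.62 on F6 and 3.80 on F12, and its F0 pair, 3.76 apart, was the widest of all members. H3C2 followed the same order with 6.38, 4.11, 5.85 and 3.36, as did H3C1 with 6.86, 3.64, 5.62 and 2.64.

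In each of these H3 genes F12 lay below both F0 arrays, by less than 2-fold, and F6 lay between them. H3C8 read 7.31 and 5.62 on F0, 6.68 on F6 and 5.79 on F12, and H3C6 5.95 and 4.97, 5.51 and 5.26. These 2 had F12 within the F0 pair. The adjustment for the F0 arrays moved the H3 median to -0.62, and H2A then had the lowest median of the types, -0.72.

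The H4 genes encode the partner of H3. Of these, 5 of 8 were at least 2-fold lower on F12 than on F6 (14.7% of all genes). Their median was -1.19, against -0.29 over all genes, and -2.24 for the 4 that reached 6 on an array. H4C11 read 8.83 and 6.30 on F0, 8.08 on F6 and 5.65 on F12. H4C4 gave 7.67, 4.60, 6.54 and 4.13 in the array order. Both had F6 within the F0 pair and F12 below it.

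H4C8 was the H4 member with F6 above both F0 arrays: it read 5.34 and 3.84 on F0, 6.18 on F6 and 4.11 on F12, and its second probeset gave 3.52, 3.25, 4.94 and 3.92. H4C5, at 6.26, 5.40, 5.81 and 4.75, and H4C9, at 5.51, 4.26, 5.03 and 4.65, were close to background. The other 3 H4 members, H4C1, H4C7 and H4C13, were under 6 on every array, as was H3C11. Of the 4 entries without a protein, H2AC5P alone reached 6, with 6.66 and 5.29 on F0, 6.48 on F6 and 4.74 on F12.

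Histone genes are so alike that many more of them can only be read together. A further 20 probesets are each assigned to several histone genes, and 19 histone genes that are not among the members lie on these alone. All 20 were higher on F0 (1) than on F0 (2), and 19 were lower on F12 than on F6, 15 of them by at least 2-fold. A probeset for 14 H4 genes read 14.07 and 13.15 on F0, 13.83 on F6 and 12.36 on F12, and 1 for 2 H2A genes read 10.96, 8.31, 11.89 and 7.50. These probesets share sequence with the members and are no separate evidence.

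**Figure D3:**
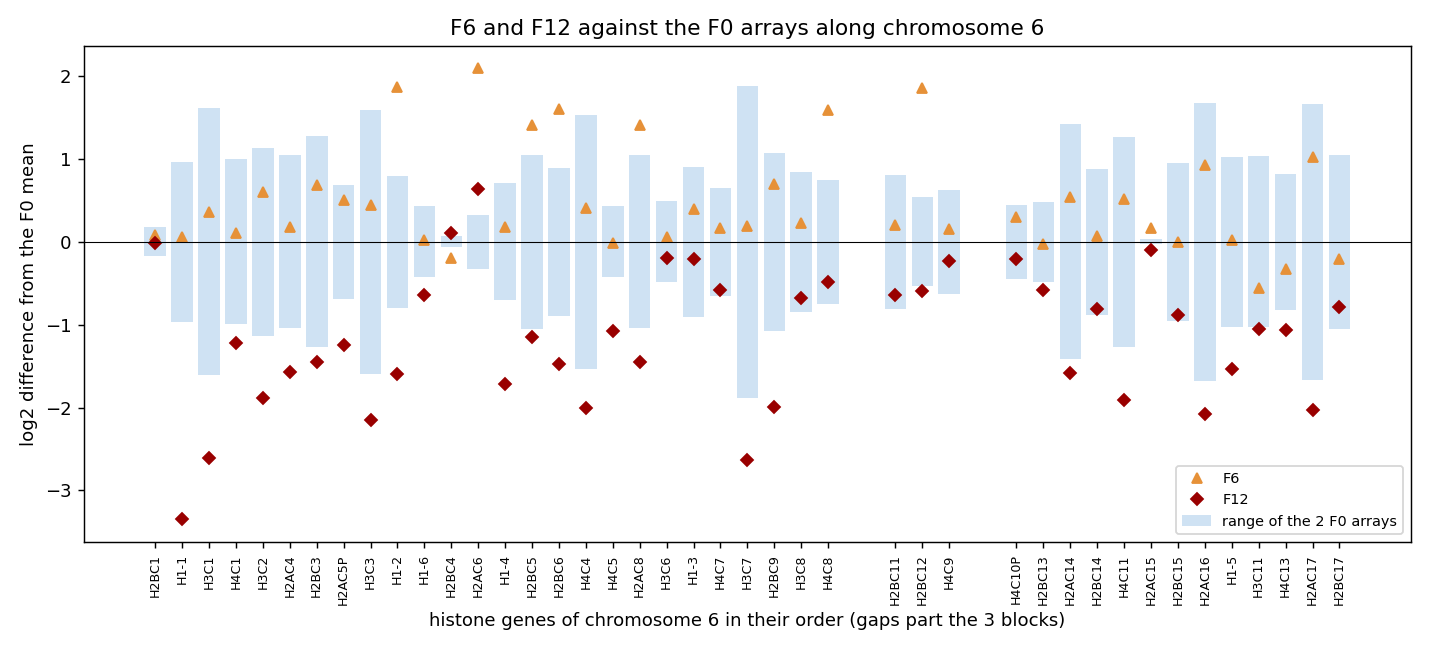
F6 (triangles) and F12 (diamonds) as log2 differences from the mean of the 2 F0 arrays, for the 42 members on chromosome 6 in their order, with blue bars spanning the F0 pair; gaps part 3 blocks more than 300 kb apart. Triangles at least 0.70 above the bars are those of H1-2, H2AC6, H2BC6, H4C8 and H2BC12, and H1-1 has the diamond farthest below its bar.

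The genes of chromosome 6 form 3 blocks separated by more than 300 kb. Over all genes, 14.7% were at least 2-fold lower on F12 than on F6, with a median difference of -0.29. In the first block, with 26 members, 19 were, and the median was -1.99. In the second, with 3 members, 1 was, and the median was -0.84; in the third, with 13 members, 5 were, and the median was -0.87. Of the 8 members on other chromosomes 2 were, with a median of -0.51. The blocks also differed in how many members were bright: 20 of 26 reached 6 on an array in the first block, 1 of 3 in the second and 6 of 13 in the third. The 8 members elsewhere had 5 that reached 6.

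Bright and dim members were also set beside all genes of like signal. Of the 50 members, 19 had a mean over the 4 arrays of at least 6; their median for F12 minus F6 was -2.45, against -0.04 for the 9547 genes of the array above that mean, and 15 of the 19 were at least 2-fold lower on F12 (22.6% of those genes). For the 31 members under 6 the median was -0.75, against -0.36 for 10228 genes. The F0 pair behaved alike: the median of F0 (2) minus F0 (1) was -1.81 for the brighter members, against 0.13 for genes above that mean.

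The other genes of the histone pathway were followed in 4 lists. Histone variants outside the gene family rule, which are mostly made throughout the cell cycle with poly(A) tails, had 10 measured members. Of these, 0 were 2-fold beyond both F0 arrays on F6 (0.561% of all genes below, 0.576% above) or F12 (1.37% below, 1.93% above). On F12, 2 (20.0%) were at least 2-fold lower than on F6 (14.7% of all genes) and 0 at least 2-fold higher (20.2%). The median of F12 minus F6 was -0.54, against -0.29 over all genes. H2AZ1, the variant H2A.Z found at promoters, read 13.04 and 13.18 on F0, 13.06 on F6 and 12.50 on F12. H2AX, the variant phosphorylated at DNA breaks, read 11.37, 9.85, 10.91 and 9.09 in the array order, the order most common among the members. H3-3A, which encodes H3.3, stayed between 5.65 and 5.92 on the probeset taken for it, near background on every array. H3-3B was on shared probesets only, so these values do not give the level of H3.3.

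Genes that transcribe and process histone RNA were split in direction. Of 25 measured, 6 (24.0%) were at least 2-fold lower and 9 (36.0%) at least 2-fold higher on F12 than on F6. These shares were 14.7% and 20.2% over all genes, and the median of the list was -0.04. SLBP, the stem-loop binding protein, read 9.34 and 10.92 on F0, 10.65 on F6 and 9.70 on F12. NPAT, the coactivator of histone loci driven by cyclin E and CDK2, read 4.49 and 7.64 on F0, 4.96 on F6 and 6.99 on F12. It was higher on F0 (2) than on F0 (1), where 49 of 50 histone genes were lower. Likewise it was higher on F12 than on F6, where 48 of 50 were lower. CDK2 was the 1 gene of the list at least 2-fold below both F0 arrays on F12, with 9.47, 9.12, 9.76 and 7.88.

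The histone chaperones, which carry new histones to DNA, had a median of -0.18 over 29 genes. On F12, 8 (27.6%) were at least 2-fold lower than on F6 and 9 (31.0%) at least 2-fold higher. These shares were 14.7% and 20.2% over all genes. Of the 29, 3 (10.3%) were at least 2-fold below both F0 arrays on F12, against 1.37% of all genes. ASF1B, the chaperone of proliferating cells, read 9.44 and 7.36 on F0, 9.16 on F6 and 6.36 on F12. HJURP, which loads the centromeric H3 variant, had 7.83, 8.26, 8.73 and 6.76, and MCM2, a helicase subunit that also binds H3 and H4, had 12.39, 10.85, 11.95 and 9.80 in the array order.

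The S-phase DNA synthesis list had, of the 4 lists, the median nearest to that of the 50 histone genes. The sets differed in signal: 32 of the 50 histone genes and 23 of the 24 S-phase genes reached 6 on an array. For the 19 histone genes with a mean of at least 6 the median was -2.45. Of 24 genes, 14 were at least 2-fold lower on F12 than on F6 and 3 at least 2-fold higher, with a median of -1.20; 0 were at least 2-fold beyond both F0 arrays on F6, and on F12 7 (29.2%) were at least 2-fold below both. RRM2, a subunit of ribonucleotide reductase, read 11.13 and 10.92 on F0, 11.73 on F6 and 7.91 on F12. F12 stood alone, below 3 other arrays that were close together. GINS2, a part of the replicative helicase, read 9.91, 8.73, 9.46 and 7.02, UHRF1, which keeps DNA methylation through replication, 10.22, 9.61, 10.23 and 8.16, and CDC45, another helicase part, 9.14, 7.96, 8.49 and 6.72 in the array order. The other 3 were TK1, MCM3 and CDT1. The F0 arrays gave another picture here: F0 (2) was lower than F0 (1) in 11 of the 24 S-phase genes (45.8%), against 49 of 50 histone genes. Over all genes this share was 66.0%, and 48.2% for those with a mean of at least 6. In bulk RNA, fewer cells in S phase and less of these RNAs per cell cannot be told apart.

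**Figure D4:**
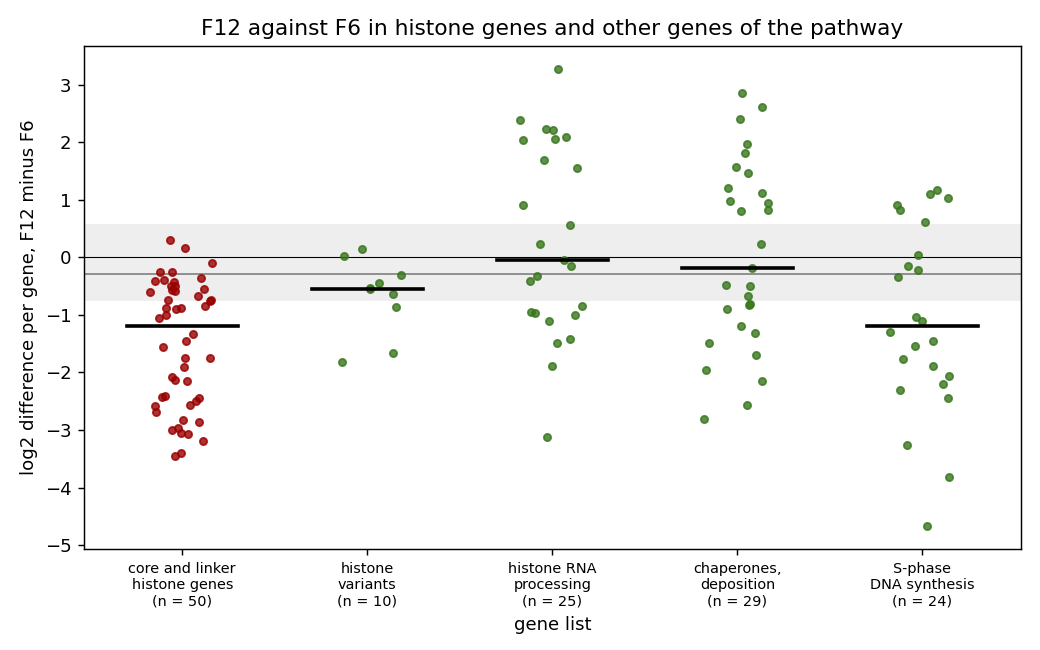
Log2 difference of F12 minus F6 per gene (points) for the 50 histone genes and the 4 lists of other pathway genes, with black bars at the medians; the grey line and band are the median and middle 50% of all 19775 genes. The histone genes and the S-phase list have medians of -1.19 and -1.20, but differ in signal: 32 of 50 and 23 of 24 genes reached 6. The 19 histone genes with a mean of at least 6 have a median of -2.45. The processing and chaperone lists spread to both sides of 0.

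A set of other RNAs that mostly lack a poly(A) tail, chosen after the histone values had been seen (the ribosomal precursor RNA45SN5, RPPH1 and small nucleolar and Cajal body RNAs), was measured beside the histone genes. Of 18 measured, 16 (88.9%) were lower on F0 (2) than on F0 (1), against 66.0% of all genes. The share was 82.5% of genes with a mean under 6 and 48.2% of those with a mean of at least 6. Of the 18, 10 reached 6 on an array and 8 did not. On F12, 14 of the 18 were lower than on F6 (63.5% of all genes), 9 of them at least 2-fold lower (14.7% of all genes). At least 2-fold higher were 2, SCARNA15 and SNORD89 (20.2% of all genes). The median was -0.91, against -0.29 over all genes. RNA45SN5 read 12.96 and 6.87 on F0, 11.92 on F6 and 6.54 on F12. The part of RNA tails or of sample quality in the histone differences was not tested.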

How the data were processed

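Total RNA of HuH7 samples was measured on Affymetrix 3' arrays (1 per sample, 4 in all). The deposited table holds log2 expression values of 54613 probesets, which the authors made with RMA and affy, per the submitters' processing notes; versions were not given in the sources used here. Of these probesets 41091 had 1 gene symbol in the platform annotation, 1801 several and 11721 none, which gave 19775 genes; the RefSeq match altered 0 symbols. Each gene is represented by 1 probeset, the one whose 4 values had the highest mean, and an _x_at probeset was taken only where there was no other. Arrays carry no read depth, and their number limits the precision.

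The members and gene lists were chosen with earlier results of these data known. Counts and medians were set beside those of all genes, with 2-fold as the threshold and 6 as the log2 signal near background. limma 3.58.1 in R 4.3.3 fitted all genes in 3 groups, and in 2 groups (F0; F6 with F12), with Benjamini-Hochberg adjustment at 0.05; this step was tested on simulated data. If the F0 samples are not separate cultures, p-values measure a technical spread only. Text names every H1 gene, the 5 of each core type with the highest mean, every member at least 2-fold beyond both F0 arrays, and, of the pathway lists (histone variants, histone RNA transcription and processing, chaperones, S-phase DNA synthesis), up to 4 genes a list beyond both F0 arrays, by distance, with SLBP, NPAT, H2AZ1, H2AX, H3-3A and H3-3B. Genes outside this rule (such as H2AC16, H2BC4, H2BC21, H2AC5P and H3C1) were named after their values were seen, as was the list of RNAs without poly(A) tails. Alternatives changed the probeset rule, a minimum signal, median centring, the fold, the F0 arrays used, a trend in limma, and the members (2 of these, protein-coding genes only and no _x_at-only genes, added after seeing the data). Protein sequences were not used here, so the planned comparison of protein identity was not run.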

Additional observations from a re-analysis of the deposited data

Results flagged for a closer look

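For 8 members F6 and F12 lay on opposite sides of both F0 arrays, as they did for 7.07% of all genes (1399). With 1 array each the difference between F6 and F12 was not tested for these genes beyond the limma model, which called none of them (adjusted p of 1). F6 was the higher array in 7. F12 minus F6 was -3.46 for H1-2, -3.19 for H2BC12L, -3.08 for H2BC6, -2.86 for H2AC8, -2.56 for H2BC5 and -2.45 for H2BC12. It was -0.26 for H2AC15, which lay between 3.78 and 4.04 on the 4 arrays, and 0.31 for H2BC4, between 2.06 and 2.37, so that both were near background.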

How the results depend on the processing

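Which F0 array is used decided most counts against F0. Shares of all genes against a single F0 array are not given, so the counts that follow stand without a background. Leaving out each F0 array in turn, the members at least 2-fold below F0 on F6 ranged from 0 to 9, those above on F6 from 4 to 29, those below on F12 from 2 to 39 and those above on F12 from 0 to 1. The median of F6 minus F0 ranged from -0.52 without F0 (2) to 1.08 without F0 (1), and by type, in the same order of arrays, from -0.54 to 0.89 (H1), -0.25 to 2.19 (H2A), -0.26 to 1.29 (H2B), -1.15 to 1.74 (H3) and -0.62 to 0.96 (H4). The median of F12 minus F0 ranged from -1.83 to -0.10 and kept its direction.

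With 4-fold as the threshold, 0 members were above both F0 arrays on F6 and 1 (H1-1) below both on F12. The adjustment for the F0 arrays gave 14 members lower and 1 higher on F12 than on F6, an F6 minus F0 median of -0.065 for H1 and -0.0043 for H3 genes, and reversed F12 minus F6 to 0.47 for H1-3, 0.21 for H1-7, 0.29 for H1-8, 0.64 for H2AC25, 0.29 for H3C6, 0.13 for H3C8 and 0.26 for H4C9. Centring each array on its median, which differed between arrays by 0.196, turned the H1 median of F6 minus F0 to -0.011, and the mean of probesets turned H3C6 to 0.24. The cause of these turns was not tested. Of the other alternatives, 90 for the group values and 213 for types and single genes were judged unmoved. Counts were judged by their ratio to the main count, and medians and differences by the SD of the F0 pair, which is wide. The median of F12 minus F6 over the members was thus judged unmoved, though the adjustment took it from -1.19 to -0.41. For types and single genes 8 more moved by more than this SD without turning, among them the H2B and H4 medians of F12 minus F6 under the minimum signal. No member was called by limma under any alternative run. No paired analysis was possible because the groups compared share fewer than 2 replicate numbers.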
